A study of Drosophila melanogaster and Drosophila simulans and Drosophila sechellia with 48 samples.

Results

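S-Lap1 and S-Lap7 encode sperm leucyl aminopeptidases, and each was represented by 1 element (a cDNA printed as a pair of duplicate spots) on a microarray of Drosophila melanogaster cDNAs. Elements were taken where the gene symbol was S-Lap1 or S-Lap7, which gave 2 of the 3775 elements that had both a gene name and values in at least 1 species or the hybrids. The S-Lap7 element carried its symbol in the array annotation, whereas the S-Lap1 element was named through the list of spots supplied by the authors, because the annotation used here did not include it. Both elements had values on all 48 arrays.

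Leucyl aminopeptidases are metal-dependent enzymes that remove amino acids from the amino end of proteins. In Drosophila a family of them is expressed in the testis and is abundant in mature sperm, where several members are thought to have lost enzyme activity and to serve as structural proteins of the mitochondrial derivative that runs along the sperm tail. Spermatogenesis starts in the larval testis, and spermatids elongate and mature through the pupal stage, so sperm genes are a way to follow testis development in extracts of whole males.

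Whole males were sampled at 4 stages, as larvae (96 h after hatching), early pupae, late pupae (72 h after puparium formation) and adults (1.5 h after eclosion). Early pupae were at 4 h in the sample labels, a time after puparium formation that the Methods put earlier. The supplementary methods count the pupal hours from the end of a collection window. The lineages were F1 hybrids of D. simulans females and D. sechellia males, whose males are sterile, and the pure species D. melanogaster (strain 14021-0231.00), D. sechellia (Cousin Island) and D. simulans (strain 14021-0251.2). Each RNA sample came from a pool of 25 males and was amplified, labelled and hybridised in the Alexa 647 channel against a common reference of mixed-stage D. melanogaster males in the Alexa 555 channel, with no dye swap, and the reference was not amplified. Each of the 16 groups had 3 arrays, which for hybrids were separate pools and for a pure species were repeated hybridisations of 1 pool. The measure is the sample over the reference on the log2 scale, so that 0 is the level of the reference and a step of 1 is a doubling, and all of them are relative to a reference whose own content of these transcripts was not measured. Because whole bodies were used, fewer testis cells and less RNA per testis cell cannot be told apart.

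Some arrays of a group were not independent. In 7 of the 48 pairs of arrays within a group, the difference between duplicate spots correlated between the arrays at 0.607 to 0.971, against -0.0339 to 0.0365 in the other 41 pairs, and these near-identical arrays were counted as 1. One such pair was replicates 1 and 2 of the adult hybrids, so that the adult hybrids contributed 2 independent values. The arrays of each pure-species group were averaged to 1 value, and the spread between pools was estimated from the hybrids and assumed to hold for the species. Array medians lay between -0.09 and 0.09, so the elements described here are compared on arrays that were centred alike.

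In the hybrids, S-Lap1 had log2 ratios of -1.82, -1.49 and -2.29 in larvae, -1.27, -1.44 and -1.82 in early pupae, -0.93, -0.33 and -0.03 in late pupae, and -1.02, -0.98 and -1.32 in adults. All 12 hybrid values were therefore below the level of the reference, and the late pupae were the highest of the 4 hybrid stages. In D. melanogaster the values were -0.31, -0.76 and -0.60 in larvae, 0.06, 0.06 and -0.01 in early pupae, 1.23, 0.84 and 1.00 in late pupae, and 0.76, 0.98 and 0.74 in adults. In D. sechellia they were -1.97, -1.82 and -1.43 in larvae, -0.26, -0.89 and -0.27 in early pupae, 0.27, 0.28 and 0.54 in late pupae, and 1.54, 1.22 and 1.53 in adults. In D. simulans they were -1.31, -0.77 and -1.25 in larvae, 0.45, 0.91 and 0.49 in early pupae, 0.58, 0.32 and 0.50 in late pupae, and 1.05, 1.16 and 1.05 in adults. In each of the 3 species every larval array was below every array of the 3 later stages, and every late pupal and adult array was above the reference. The arrays of a species group shared 1 pool, and the share of all elements with stages separated in this way is not given.

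S-Lap7 followed a similar course. In the hybrids it had log2 ratios of -1.59, -2.13 and -2.07 in larvae, -1.15, -1.38 and -1.86 in early pupae, -0.47, 0.12 and 0.02 in late pupae, and -0.68, -0.65 and -0.78 in adults. As for S-Lap1, the hybrid late pupae were the highest stage, and the adult arrays were all below the late pupal ones. The share of all elements with hybrid adult arrays all below the late pupal ones is not given. In D. melanogaster the values were -0.79, -0.98 and -0.74 in larvae, 0.41, 0.42 and 0.32 in early pupae, 0.57, 0.74 and 0.71 in late pupae, and 0.53, 0.79 and 0.80 in adults. In D. sechellia they were -1.62, -1.51 and -1.04 in larvae, -0.88, -0.88 and -0.90 in early pupae, 0.03, -0.13 and 0.02 in late pupae, and 0.82, 0.76 and 0.84 in adults. In D. simulans they were -1.44, -2.24 and -0.78 in larvae, -0.15, 0.01 and 0.06 in early pupae, 0.47, 0.19 and 0.46 in late pupae, and 0.78, 1.19 and 0.76 in adults. The D. simulans larvae had the widest spread of any S-Lap7 group, although their arrays were hybridised with the same pool of RNA.

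**Figure D1:**
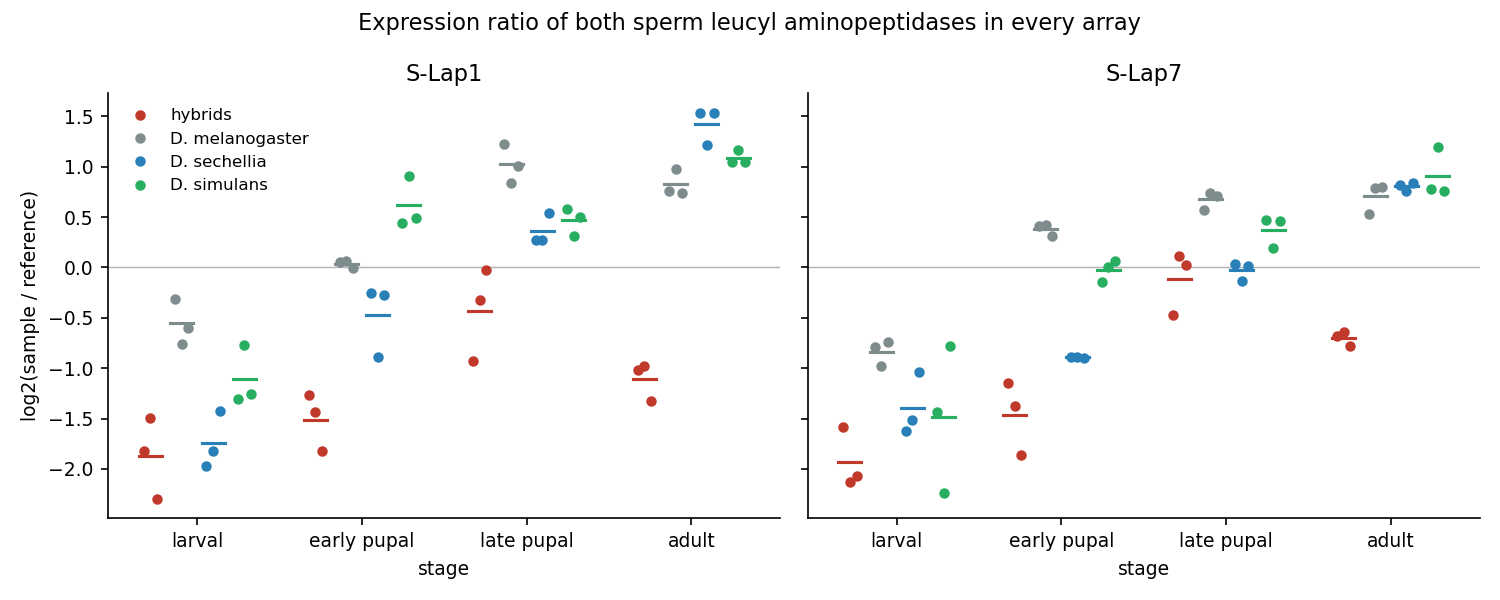
Log2 ratio of sample to reference (vertical axis) for S-Lap1 (left) and S-Lap7 (right) at the 4 stages, with the hybrids at the left of each stage and then the species in alphabetical order. Points are the 3 arrays of a group and bars their mean. The adult hybrids lie between -1.32 and -0.98 for S-Lap1 and between -0.78 and -0.65 for S-Lap7, below every adult array of the 3 species. For 13.3% of all elements every adult hybrid array was below every adult array of both parents.

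Ordered by their group values, with near-identical arrays counted as 1, the 16 groups of S-Lap1 ran from 1.38 in D. sechellia adults to -1.87 in hybrid larvae. The adults of the 3 species, the D. melanogaster late pupae and the D. simulans early pupae held the top 5 places, and the adult hybrids, at -1.16, came 13th, next to the D. simulans larvae at -1.11. For S-Lap7 the order ran from 0.98 in D. simulans adults to -1.93 in hybrid larvae, the adults of the 3 species held the top 3 places, and the adult hybrids, at -0.72, came 10th. No step between neighbours in the S-Lap1 order exceeded the spread (the smallest unadjusted p of limma was 0.253). In the S-Lap7 order only the step of 0.61 from late pupal to adult hybrids had an unadjusted p under 0.05, at 0.0403, and its adjusted p was 0.169.

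The first comparison asked how the transcripts changed between stages. A change was called where the adjusted p of limma, with Benjamini-Hochberg adjustment over all named elements, was under 0.05 and the change was at least 1.5-fold, which is a difference of 0.58 in log2 ratio. Averaged over the 3 species, S-Lap1 was higher in adults than in larvae by 2.24 (SE 0.27, 4.72-fold, adjusted p = 7.77e-06), and S-Lap7 by 2.06 (SE 0.25, 4.18-fold, adjusted p = 7.41e-06). Both changes were called, where 39.8% of all 1980 elements tested were called in either direction and 19.2% were called higher. By size, the change of S-Lap1 was the 39th largest increase of these 1980. Of the 3 transitions within this interval only the first was called. Between larvae and early pupae S-Lap1 rose by 1.16 (SE 0.27) and S-Lap7 by 1.06 (SE 0.25) in the mean of the species, both with an adjusted p of 0.0043, where 24.5% of elements were called. Between early and late pupae the differences were 0.60 for S-Lap1 (adjusted p = 0.114) and 0.51 for S-Lap7 (adjusted p = 0.141), where 27.3% of elements were called, and between late pupae and adults they were 0.48 (adjusted p = 0.251) and 0.50 (adjusted p = 0.198), where 14% were, and none of these 4 was called.

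Single species had 1 pool per stage each. S-Lap1 rose between larvae and early pupae in D. simulans by 1.73 (SE 0.47, adjusted p = 0.0409), and this call was lost with the second spot alone (adjusted p = 0.103) and in 7 of 51 settings that left out arrays. Among these were the omission of D. simulans larval replicate 1, D. simulans early pupal replicate 2, hybrid early pupal replicate 2, hybrid late pupal replicate 2 or hybrid adult replicate 3, each alone (adjusted p = 0.0544 to 0.0613). The corresponding difference was 0.58 in D. melanogaster (adjusted p = 0.671) and 1.16 in D. sechellia (adjusted p = 0.118). For S-Lap7 no single transition in 1 species was called, the nearest being the 1.46 between larvae and early pupae of D. simulans (adjusted p = 0.0606), and S-Lap1 had no call at the 2 later transitions. Over all elements the shares called at these 3 transitions in turn were 3.24%, 5.78% and 4.37% in D. melanogaster, 8.8%, 6.69% and 4.24% in D. sechellia, and 4.79%, 7.9% and 2.67% in D. simulans. From larvae to adults S-Lap1 rose by 3.11 in D. sechellia (adjusted p = 0.000544) and by 2.22 in D. simulans (adjusted p = 0.00672), and differed by 1.38 in D. melanogaster (adjusted p = 0.0646). S-Lap7 rose by 1.54 in D. melanogaster (adjusted p = 0.0281, but 0.0699 with the odd-numbered spot alone, 0.0675 without all arrays numbered 2 and 0.0853 without those numbered 3), by 2.19 in D. sechellia (adjusted p = 0.00281) and by 2.47 in D. simulans (adjusted p = 0.00188). Between larvae and adults, D. melanogaster had 11.3% of all elements called, D. sechellia 15.5% and D. simulans 8.92%. Tested directly, the changes in D. sechellia minus those in D. simulans had adjusted p between 0.977 and 1 for both transcripts, over the 3 transitions and from larvae to adults.

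In the hybrids the called transition was the second. Between early and late pupae both transcripts rose, S-Lap1 by 1.08 (SE 0.27, adjusted p = 0.00445) and S-Lap7 by 1.35 (SE 0.25, adjusted p = 0.000366), at a transition where 37.1% of all elements were called. Between larvae and early pupae the differences of 0.36 and 0.46 were not called (adjusted p = 0.416 and 0.224), where 19.5% of elements were. Between late pupae and adults, where the species means were 0.48 and 0.50 higher, the hybrids differed by -0.73 for S-Lap1 (95% interval -1.37 to -0.10, adjusted p = 0.128) and by -0.61 for S-Lap7 (interval -1.19 to -0.03, adjusted p = 0.169), and neither was called, where 12.6% of elements were. Over the whole interval S-Lap7 rose by 1.21 between hybrid larvae and adults (SE 0.28, adjusted p = 0.00386), where 26.5% of elements were called, and S-Lap1 differed by 0.71 (SE 0.30, adjusted p = 0.0901).

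**Figure D2:**
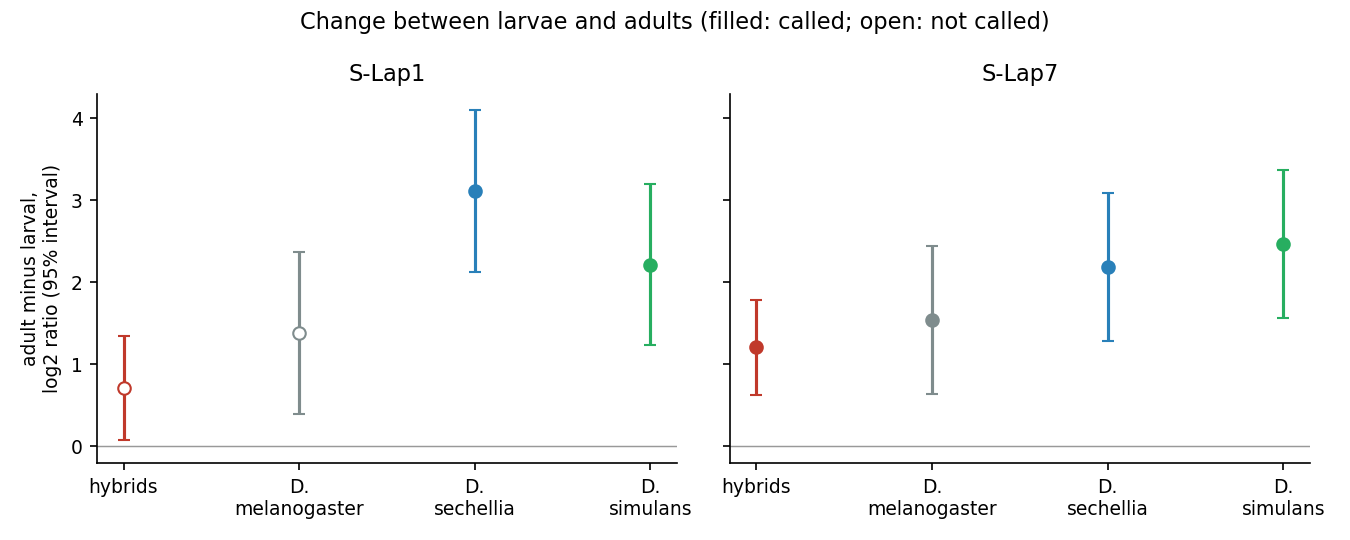
Adult minus larval difference in log2 ratio (vertical axis) of S-Lap1 (left) and S-Lap7 (right) in the hybrids and the 3 species, with 95% intervals from the fit. Filled points passed the test and the fold minimum. The hybrid point is the lowest of the 4 in both panels, at 0.71 for S-Lap1 and 1.21 for S-Lap7.

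Whether the hybrids changed differently from their parents was tested directly, as the change in the hybrids minus the mean change of D. sechellia and D. simulans. For S-Lap1 the change from larvae to adults was 1.96 smaller in the hybrids (difference -1.96, SE 0.45, adjusted p = 0.0479), where 1.49% of the 1809 elements tested were called and 6 had a lower value. This call lay close to the threshold. It was lost with either duplicate spot alone (adjusted p = 0.0746 and 0.0832), with unnamed elements included (adjusted p = 0.0564), and in 11 of 51 settings that left out arrays. Single arrays whose omission ended it were D. simulans adult replicate 2, hybrid larval replicates 2 and 3, hybrid early pupal replicates 2 and 3, hybrid late pupal replicates 1, 2 and 3, and hybrid adult replicate 3, with adjusted p between 0.0515 and 0.254, the highest without hybrid adult replicate 3 (difference -1.80). For S-Lap7 the difference was -1.12 (SE 0.41, adjusted p = 0.0958), which was not called. At the last transition, from late pupae to adults, the differences were -1.56 for S-Lap1 (SE 0.45, adjusted p = 0.192) and -1.34 for S-Lap7 (SE 0.41, adjusted p = 0.236), at a transition where 0% of elements were called. By size they were the 26th and 36th lowest of 1809 elements. Their unadjusted p of limma was 0.00275 and 0.00431, and the share of all elements with so low a p is not given. At the first transition the differences were -1.08 and -0.52 (both with an adjusted p of 0.908), and at the second they were 0.68 and 0.74 (adjusted p = 0.952 and 0.932), and 0% of elements were called at either.

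The second comparison set the hybrids against each parent at the same stage. In adults both transcripts were lower in the hybrids than in either parent. S-Lap1 averaged -1.11 ± 0.19 in adult hybrids, 1.43 ± 0.18 in D. sechellia and 1.09 ± 0.07 in D. simulans (SD, n = 3 arrays each), and S-Lap7 averaged -0.70 ± 0.07 in adult hybrids, 0.81 ± 0.04 in D. sechellia and 0.91 ± 0.25 in D. simulans. Each of these SDs includes a near-identical pair, replicates 1 and 2 in the hybrids and replicates 1 and 3 in each parent. For the parents the SD is between hybridisations of 1 pool, and for the hybrids between pools. With near-identical arrays counted as 1, S-Lap1 was lower in adult hybrids than in D. sechellia by 5.81-fold (difference -2.54, SE 0.40, adjusted p = 0.00257) and than in D. simulans by 4.82-fold (difference -2.27, SE 0.40, adjusted p = 0.00586). S-Lap7 was lower than in D. sechellia by 2.86-fold (difference -1.52, SE 0.37, adjusted p = 0.0319) and than in D. simulans by 3.25-fold (difference -1.70, SE 0.37, adjusted p = 0.0132). The D. sechellia comparison called 3.14% of elements and the D. simulans comparison 4.25%. Elements called lower than both parents were 40 of 1809, or 2.21%, and both members were among them. Both comparisons used the same adult hybrid arrays. Every adult hybrid array was below every array of both parents, which was so for 13.3% of elements.

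Against the mean of both parents, adult S-Lap1 was 2.40 lower in the hybrids (difference -2.40, SE 0.33, adjusted p = 0.000448) and had the 6th lowest difference of 1809 elements, and S-Lap7 was 1.61 lower (difference -1.61, SE 0.30, adjusted p = 0.00303) and had the 41st lowest. Over all elements 5.09% were called in this comparison, 4.64% lower and 0.442% higher, and the median was 0.06. The difference between the sizes of the S-Lap1 and S-Lap7 effects was not tested. Without the third adult hybrid array, 1 independent adult hybrid value remained and its spread was taken from the other hybrid stages. The differences from the mean of both parents were then -2.24 for S-Lap1 (adjusted p = 0.0139) and -1.55 for S-Lap7 (adjusted p = 0.0481) and stayed called, but of the 4 calls against single parents 3 were lost, as S-Lap1 differed from D. simulans by -2.11 (adjusted p = 0.0567) and from D. sechellia by -2.38 (adjusted p = 0.0266), while S-Lap7 differed from them by -1.64 (adjusted p = 0.0979) and -1.46 (adjusted p = 0.16). Under the same omission the number of all elements called lower than both parents was 1.

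In early pupae both transcripts were lower in the hybrids than in D. simulans, and neither was called against D. sechellia. S-Lap1 was 4.36-fold lower than in D. simulans (difference -2.13, SE 0.38, adjusted p = 0.00737) and S-Lap7 was 2.71-fold lower (difference -1.44, SE 0.35, adjusted p = 0.0378), where 2.15% of elements were called. The S-Lap7 call was lost without replicate 2 or replicate 3 of the early pupal hybrids (difference -1.48, adjusted p = 0.0764, and difference -1.24, adjusted p = 0.119), and, at the same difference, without hybrid late pupal replicate 2 (adjusted p = 0.0512) or 3 (adjusted p = 0.0556) or hybrid adult replicate 3 (adjusted p = 0.0561). Against D. sechellia the differences were -0.93 for S-Lap1 (adjusted p = 0.97) and -0.58 for S-Lap7 (adjusted p = 0.999), in a comparison in which 0.0491% of elements (1 of 2035) were called. All 3 early pupal hybrid arrays were nonetheless below all 3 arrays of both parents for S-Lap1 and for S-Lap7, an arrangement that 7.35% of all elements shared. Against the mean of both parents S-Lap1 differed by -1.53 (SE 0.30, adjusted p = 0.0178), the 8th lowest of 1809 elements, and was called. This call was lost in 4 of 51 settings that left out arrays. S-Lap7 differed by -1.01 (SE 0.28, adjusted p = 0.101), the 41st lowest, and was not called. Over all elements 0.94% were called lower in this comparison and 0.0553% higher.

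Larvae and late pupae gave no call for either transcript. In larvae the hybrid differences from D. sechellia were -0.13 for S-Lap1 (adjusted p = 0.888) and -0.53 for S-Lap7 (adjusted p = 0.419). Those from D. simulans were -0.76 (adjusted p = 0.441) and -0.44 (adjusted p = 0.681). The arrays of hybrids overlapped those of D. sechellia for both transcripts and those of D. simulans for S-Lap7. Every S-Lap1 hybrid array was below every D. simulans array, but the share of all elements arranged so is not given. By size this S-Lap1 difference was the 144th lowest of 1904. The larval comparison with D. sechellia called 0.147% of elements and that with D. simulans 0.105%. The sign of the larval S-Lap1 difference from D. sechellia turned with quantile normalization between arrays, to 0.06. In late pupae, the stage with the highest hybrid values, S-Lap1 differed from D. sechellia by -0.83 (adjusted p = 1) and from D. simulans by -0.86 (adjusted p = 0.307), and S-Lap7 by -0.09 (adjusted p = 1) and -0.44 (adjusted p = 0.626), where 0.0491% and 0.683% of elements were called. The late pupal S-Lap1 hybrid arrays, the highest of which was -0.03, were still all below both parents, as in 7.63% of elements, while those of S-Lap7 overlapped D. sechellia. The 95% intervals of these 8 differences had lower ends between -1.66 and -0.83, so that a reduction of 1.5-fold lay within all 8 of them, and both late pupal S-Lap1 intervals had upper ends below 0. Against the mean of both parents, late pupal S-Lap1 differed by -0.84 (adjusted p = 0.626), the 10th lowest of 1809 elements. Late pupal S-Lap7 differed by -0.27 (adjusted p = 0.886), the 435th lowest, and 0% of elements were called. In larvae these differences were -0.44 for S-Lap1 (adjusted p = 0.4) and -0.49 for S-Lap7 (adjusted p = 0.31), the 430th and 382nd lowest.

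**Figure D3:**
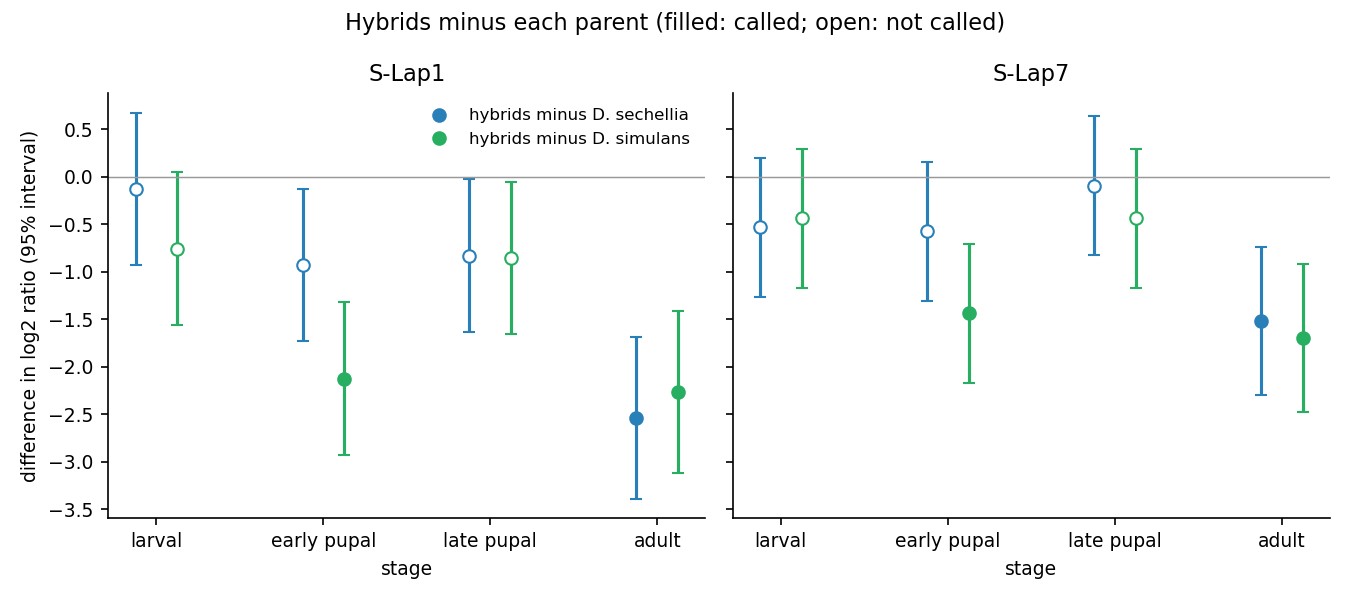
Hybrid minus parent difference in log2 ratio (vertical axis) for S-Lap1 (left) and S-Lap7 (right) at each stage, against D. sechellia and D. simulans, with 95% intervals from the fit. Filled points passed the test and the fold minimum, which held for both parents in adults and for D. simulans in early pupae.

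The third comparison set the species against each other at each stage. Of 24 tests, 12 for each member, 0 were called by limma. With every array taken as a replicate, so that arrays of 1 pool counted as independent, 9 were called. The share of all elements called in that way is not given. An unadjusted p of limma under 0.05 held for 3, and the share of all elements under it is not given either. The 3 were S-Lap1 in larvae, 1.18 higher in D. melanogaster than in D. sechellia (adjusted p = 0.254), S-Lap1 in early pupae, which differed by -1.19 between D. sechellia and D. simulans (adjusted p = 0.589), and S-Lap7 in early pupae, 1.25 higher in D. melanogaster than in D. sechellia (adjusted p = 0.208). The shares of all elements called between D. melanogaster and D. simulans were 0%, 0%, 0.283% and 0.0943% in larvae, early pupae, late pupae and adults. They were 0%, 0.7%, 0.656% and 0.394% between D. melanogaster and D. sechellia, and 0.0397%, 0.0795%, 0% and 0% between D. sechellia and D. simulans. In adults the 3 species lay within 0.55 of each other for S-Lap1 and within 0.27 for S-Lap7. The hybrids were tested against their parents only, and their difference from D. melanogaster was not tested. The largest adult difference was that of -0.55 between D. melanogaster and D. sechellia for S-Lap1 (95% interval -1.53 to 0.43, adjusted p = 0.643). The array carries D. melanogaster sequences, and the part that sequence divergence plays in values of the other species was not tested.

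The pair of transcripts varied together. Over the 16 group values their Pearson correlation was 0.951, where the median correlation of S-Lap1 with the other 1765 elements measured in all groups was -0.13. The points share arrays, the reference and the stages, so this describes likeness over these groups. Of the 1765, S-Lap7 was the 8th most like S-Lap1, and S-Lap1 was the 14th most like S-Lap7. The other 7 elements nearest to S-Lap1 were CG12902 (correlation 0.959), CG10862, CG32820, sinah, of the Sina family of ubiquitin ligases, Nna1, of the family of cytosolic carboxypeptidases, ssp5 and bol, which encodes an RNA-binding protein required for entry into meiotic division in males (0.952). The 8 nearest to S-Lap7 were CG32820 (0.984), CG12902, CG31988, CG2750, Nna1, bol, CR11023 and CG2127 (0.966), and 4 of them, CG32820, CG12902, Nna1 and bol, were on both lists. Each of these elements was called lower in adult hybrids than the mean of the parents, by differences between -1.62 for CG10862 and -2.53 for CG32820, where 4.64% of all elements were called lower. The adult hybrid groups are among the points that the correlation rests on, so these calls are not separate from how the elements were chosen.

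**Figure D4:**
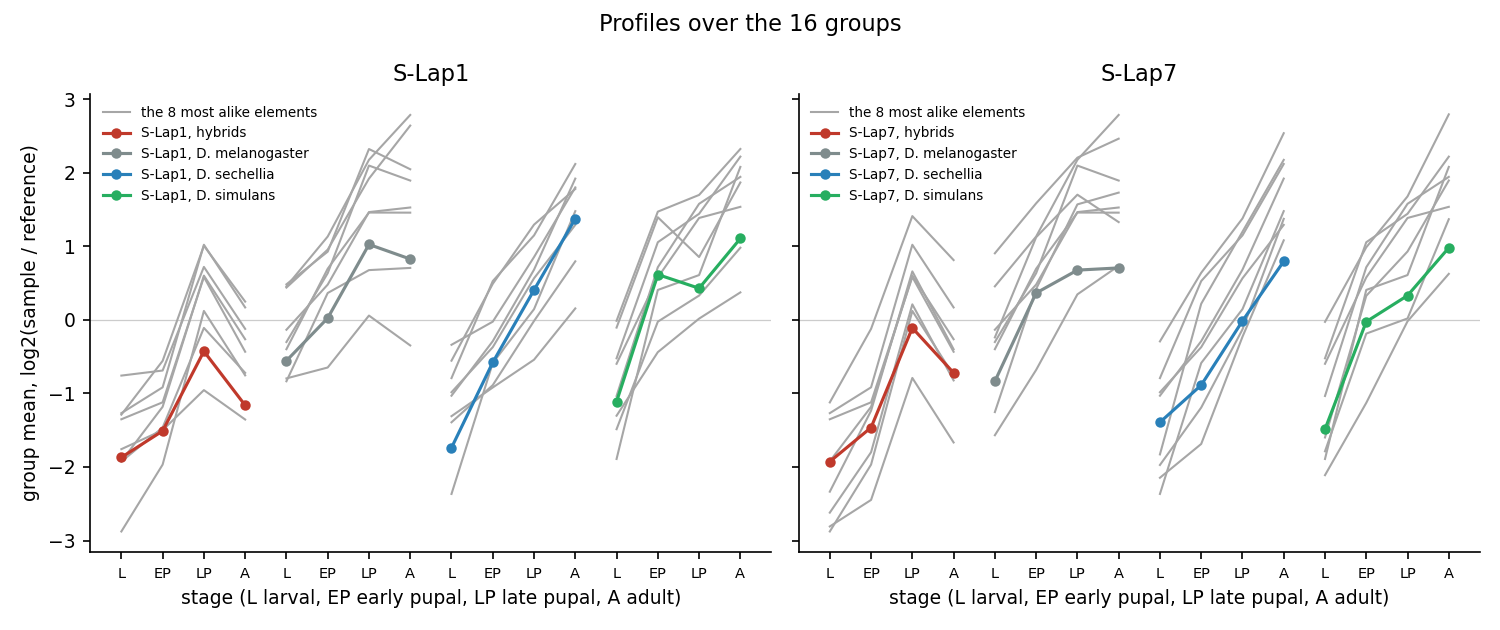
Group values (log2 ratio of sample to reference, vertical axis) of S-Lap1 (left) and S-Lap7 (right) in colour, over the 4 stages (L is larval, EP is early pupal, LP is late pupal and A is adult) of the hybrids at the left and then the species in alphabetical order. Grey lines are the 8 elements whose 16 group values correlated most with each, from 0.951 for the 8th of S-Lap1 to 0.984 for the first of S-Lap7, and in the hybrids every line is lower in adults than in late pupae. Both hybrid groups are among the points that the correlation rests on, so this shared course is not separate from how the elements were chosen. The share of all elements lower in adult than in late pupal hybrids is not given.

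Other leucyl aminopeptidases of the array gave fewer values. S-Lap5 had values in the 3 species and none in the hybrids, and in D. melanogaster it had log2 ratios of 0.37, 0.35 and 0.99 in larvae and 1.29, 1.64 and 2.08 in adults. In D. sechellia it had -0.29, -0.30 and -0.38 in larvae and 2.08, 1.40 and 2.12 in adults, and in D. simulans -0.64, -0.23 and -0.22 in larvae and 1.28, 1.20 and 1.33 in adults, so that adult and larval arrays did not overlap in any of them. These arrays too shared 1 pool per group, and the share of all elements without such overlap is not given. S-Lap4 had values in 2 species only, with 0.72, 0.40 and 0.70 in adults of D. sechellia and larval arrays between -1.37 and -0.82, and with 0.13, 0.06 and 0.17 in adults of D. simulans and larval arrays between -1.43 and -1.13. As neither has hybrid values, their spread between pools is unknown and no test is given. S-Lap8 was named on the array and had no values, and loopin-1, S-Lap2 and S-Lap3 were not found by name. For grsm (granny smith), a family member not restricted to sperm, adult hybrids had -0.98, -1.36 and -1.35, against -0.50, -0.03 and -0.56 in D. sechellia and -0.93, 0.07 and -0.90 in D. simulans (difference from the mean of parents -0.91, adjusted p = 0.138). For Dip-B, a dipeptidase, adult hybrids had 0.75, 0.78 and 0.29, against 0.08, 0.06 and 0.15 in D. sechellia and -0.07, 0.87 and -0.21 in D. simulans (difference 0.30, adjusted p = 0.591). Neither was called. Hybrid and D. simulans arrays overlapped for Dip-B, and for grsm every hybrid array was below every parental array, the nearest of them being -0.98 in hybrids and -0.93 in D. simulans. In adults 13.3% of all elements were arranged so. The change of grsm from larvae to adults in hybrids minus that in the parents was -1.51 (adjusted p = 0.058), against which the S-Lap1 and S-Lap7 differences were not tested.

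In the genome annotation used for names, S-Lap1 lies on chromosome arm 3L, next to S-Lap2 and CG6282, and S-Lap7 on 2R between the cuticle protein genes Cpr50Ca and Cpr50Cb. The elements are cDNAs, and whether transcripts of related members of the family hybridised to them was not tested.

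Some spermatid and sperm genes were also called lower in adult hybrids. Of the 62 genes of that list, 15 were measured in hybrids and both parents, of which 12 lay below 0 and 4 were called lower in adult hybrids than the mean of the parents, with 0 called higher, where 4.64% of all elements were called lower. Those called were mil, a nucleosome assembly factor gene of spermatids, at -2.62 (adjusted p = 0.000448), Hsp60C, a mitochondrial chaperonin gene, at -2.35 (adjusted p = 0.000774), m-cup, a gene transcribed after meiosis, at -1.87 (adjusted p = 0.00358), and betaTub85D, the testis tubulin of the sperm axoneme, at -1.42 (adjusted p = 0.0129). The S-Lap1 difference of -2.40 fell between those of mil and Hsp60C, and the S-Lap7 difference of -1.61 between those of m-cup and betaTub85D. At the other end were hmw at 0.61 (adjusted p = 0.252), ND-24L at 0.42 (adjusted p = 0.526), Pglym87 at 0.33 (adjusted p = 0.605) and Prosalpha4T1 at -0.06 (adjusted p = 0.954), none of them called. The median of the 15 was -0.67, against 0.06 over all elements. Of 20 regulators of the spermatocyte stage, 3 were measured and bol was called lower, with a difference between those of Hsp60C and m-cup (adjusted p = 0.00303), and the median of the 3 was -0.90. The spermatid genes include some that were chosen with results from these arrays known.

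Markers of other tissues in the whole-body extracts did not pass the test in the same comparison. Of 12 muscle elements, 0 were called by limma in adults, the differences of adult hybrids from the mean of parents ran from -0.88 for 1 element of Act87E to 0.48 for TpnC73F, and their median was -0.23. The muscle list had a median log2 ratio of -0.03 in adult hybrids, 0.73 in D. sechellia and 0.01 in D. simulans. All 4 fat body elements were above 0, from 0.29 for LpR1 to 0.89 for LpR2, with 0 called by limma, and the list had a median of -1.41 in adult hybrids, -2.26 in D. sechellia and -1.60 in D. simulans. Of 22 accessory gland genes 0 were measured in hybrids and both parents. The part of these tissues in the S-Lap1 and S-Lap7 differences was not tested.

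**Figure D5:**
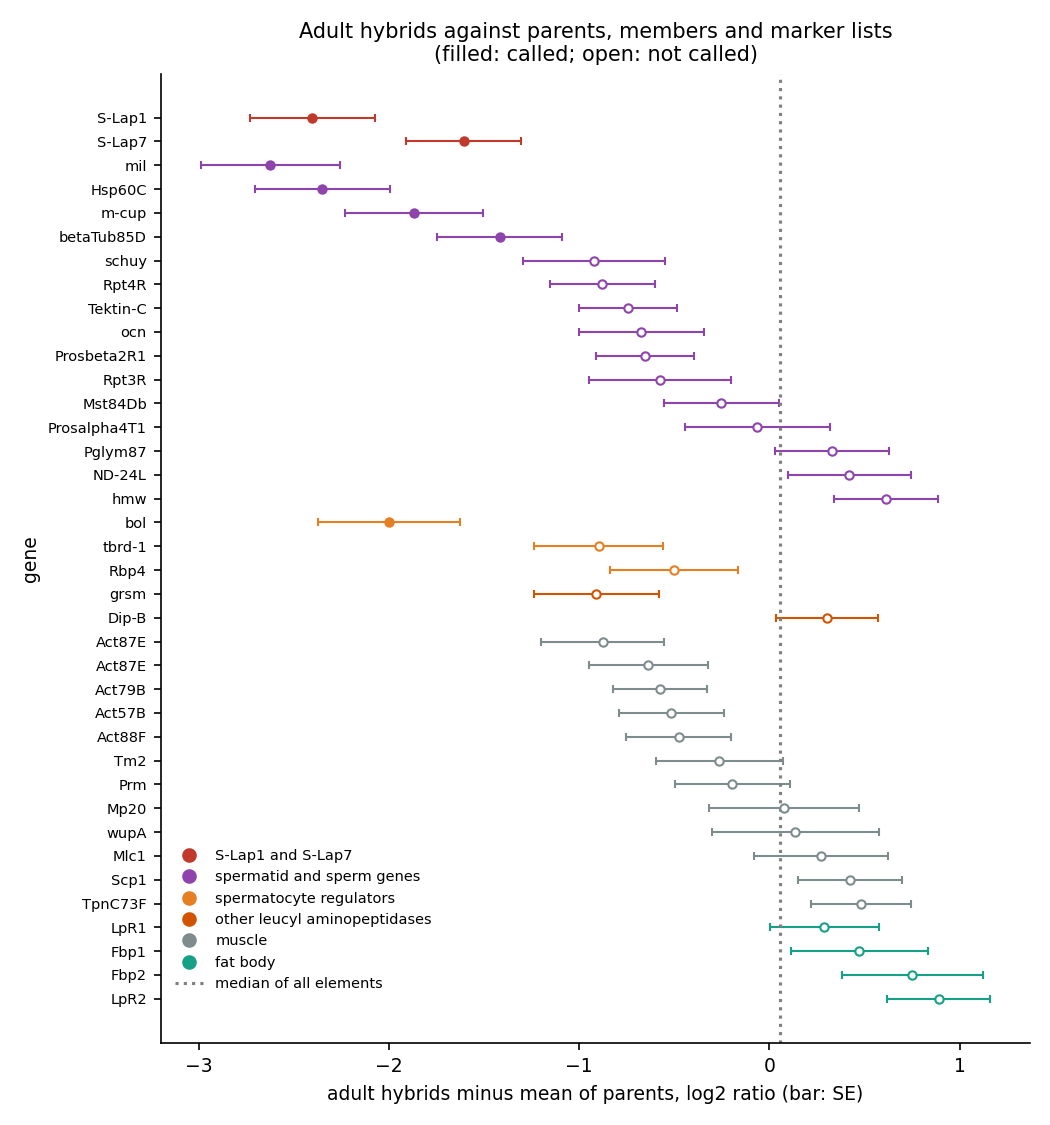
Adult hybrids minus the mean of both parents (horizontal axis, difference in log2 ratio, bars are SE) for S-Lap1, S-Lap7 and the measured members of 5 lists. Filled points passed the test and the fold minimum, and the dotted line is the median of all elements, 0.06. S-Lap1 at -2.40 and S-Lap7 at -1.61 lie with the called mil, Hsp60C, m-cup, betaTub85D and bol. Only 4 of the 15 spermatid and sperm genes and 1 of the 3 spermatocyte regulators were called, and hmw, ND-24L and Pglym87 lay above 0.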

How the data were processed

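The deposited table holds, for 48 arrays and 27648 spots, log2 ratios of sample to reference. The authors quantified spots with QuantArray and GeneTraffic, removed spots near background, kept elements with usable spots on all arrays of 1 lineage, and applied a spatial and intensity loess in maanova. Scanner values are not used here, and precision is limited by how many independent hybrid pools there are.

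Names came from the array annotation for 3416 elements and from the list of spots by the authors for 359, and 1476 elements were unnamed. Duplicate spots were averaged, near-identical arrays (correlation of the duplicate-spot difference over 0.5) merged, and arrays of a pure species averaged. One limma 3.58.1 model (R 4.3.3) was fitted to the resulting 23 values in 16 groups, with 7 residual degrees of freedom and 10.4 from the prior, and was tested on simulated data. The 1611 named elements without hybrid values took the prior variance alone, which enters the shares of elements called in species comparisons. The p-values measure the spread between hybrid pools. The authors used SAM and t-tests over spots. Here SAM was not run, because spots of 1 pool are not independent, and their t-test was an alternative.

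Named elements are both members, the 8 most correlated with each, other leucyl aminopeptidases, and the 4 highest and 4 lowest of the spermatid and spermatocyte lists, with betaTub85D and the ends of the tissue lists added after their values were seen. The members and lists were chosen with earlier results of these data known. No coordinates are given, as the gene table is of another genome release, and no sequence table was used.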

Additional observations from a re-analysis of the deposited data

Results flagged for a closer look

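The change of S-Lap1 between larvae and adults differed between the hybrids and their parents by the interaction term of limma (difference -1.96, SE 0.45, adjusted p = 0.0479). The call was lost in 11 of 51 settings that left out arrays, with -1.80 (adjusted p = 0.254) without hybrid adult replicate 3 and -2.05 (adjusted p = 0.337) without all arrays numbered 3. Both hybrid and parental values were relative to the same reference. The change was 0.71 in the hybrids, 3.11 in D. sechellia and 2.22 in D. simulans. For S-Lap7 the same difference was -1.12 (adjusted p = 0.0958). Groups of 3 arrays are too small to look for single outlying arrays.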

How the results depend on the processing

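Both members were compared in 96 contrasts under 12 alternatives other than leaving out arrays, and 978 of the 1080 values kept their direction and their side of the threshold. The increase from larvae to adults in the mean of the species and the adult calls of S-Lap1 against both parents kept theirs in the 11 run for these comparisons (the t-test over spots covered changes between stages only). S-Lap7 in adults was no longer called against D. sechellia with the even-numbered spot (-1.41), nor in early pupae against D. simulans with the odd-numbered spot (-1.37), arrays scaled to the same SD (-1.26) or quantile normalization (-1.19). The S-Lap1 difference in larva-to-adult change was lost with the odd spot (-2.10), the even spot (-1.81) and unnamed elements included (-1.96), and that of S-Lap7 was gained with every array as a replicate (-1.07), equal SD (-1.30) and quantile normalization (-1.31). With every array as a replicate, 522 elements were called in this contrast, against 27 of 1809 with arrays merged and averaged. The cause of these losses and gains was not tested.

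Elements lower than both parents numbered 40, against 124 with every array as a replicate and 21 with the even spot. Replicate numbers do not pair the arrays: deviations of same-numbered arrays correlated at a median of 0.00469, against -0.00599 for other numbers. With the replicate number as a block and every array as a replicate, the count was 125, and adult S-Lap1 differed from D. simulans by -2.19. The S-Lap7 difference in larva-to-adult change was then -1.07 and called, in a contrast where 526 elements were called.

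Signs turned only in differences that were not called. They were larval S-Lap1 against D. sechellia (odd spot 0.00366, quantile 0.0632, arrays left out -0.36 to 0.24), late pupal S-Lap1 between D. sechellia and D. simulans (even spot 0.11), S-Lap7 from late pupae to adults in D. melanogaster (odd spot -0.0599, equal SD -0.0222, quantile -0.018, arrays left out -0.0207 to 0.12), larval S-Lap7 between D. sechellia and D. simulans (odd spot -0.16, arrays left out -0.28 to 0.45) and adult S-Lap7 between D. melanogaster and D. sechellia (even spot 0.0781). With arrays left out the others were S-Lap1 from early to late pupae in D. simulans (-0.29 to 0.0718), late pupal S-Lap7 against D. sechellia (-0.25 to 0.13) and adult S-Lap7 between D. sechellia and D. simulans (-0.19 to 0.0609).

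Arrays were left out in 51 settings, those of the pure species chosen after seeing the data. Adult S-Lap1 then differed from D. simulans by -2.28 to -2.11 and from D. sechellia by -2.70 to -2.38, adult S-Lap7 by -1.71 to -1.49 and -1.56 to -1.46, early pupal S-Lap1 and S-Lap7 from D. simulans by -2.33 to -1.97 and -1.66 to -1.20, and the difference in change was -2.17 to -1.77 and -1.40 to -0.89. Elements lower than both parents numbered 0 to 59, with 1 without hybrid adult replicate 3, 25 without hybrid early pupal replicate 2, and 16 and 0 without all arrays numbered 2 and 3. Without those numbered 3, the calls against single parents in adults and early pupae, against the mean of parents in adults, of S-Lap1 from early to late pupae in hybrids and of S-Lap7 from larvae to adults in hybrids were all lost (adjusted p = 0.0644 to 0.348). Adult S-Lap7 against D. sechellia was also lost without hybrid early pupal replicate 2 (adjusted p = 0.0501). The methods' t-test over spots called 506 elements from larvae to early pupae in the hybrids and 762 in D. melanogaster (493 and 774 after Benjamini-Hochberg), against 423 and 83 by limma. It called S-Lap1 and S-Lap7 lower in adult than in late pupal hybrids (-0.68 and -0.59), a transition at which it called 533 of 2164 elements. There limma called 272 elements and neither member.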
